A study of Mus musculus with 35 samples.

Results

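The regulators of G-protein signalling (RGS proteins) are described here through 8 genes, Rgs1, Rgs2, Rgs3, Rgs4, Rgs5, Rgs10, Rgs16 and Rgs20. They are 8 of 53465 genes listed in the bulk RNA-seq data and 8 of the 21 genes of the numbered Rgs series considered. The 8 genes were listed by name because their levels in the bulk libraries differed between cell populations, so their levels in those libraries and in the single cells sorted with the same gates are given as a description and were not tested.

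The study dissociated E14.5 mouse brains and sorted 4 populations by surface markers, namely neural, mural and endothelial cells and microglia. Bulk RNA-seq covered 3 wild-type brains, each of which gave 1 library of each population (12 libraries, n = 3 per population), and library values are given in the same order of brains throughout. Single-cell RNA-seq (mCEL-Seq2, in which molecular identifiers at the 3′ end stand for single transcripts) covered 3 wild-type plates holding all populations, with a sort gate recorded per well, and 3 plates labelled Mof Knockout, without gates. Mof is the name used in the labels for Kat8, a histone acetyltransferase. The bulk libraries and the wild-type plates share the E14.5 stage and the wild-type genotype, and the labels of the knockout plates name no Cre driver or allele. The neural population was defined by absence of the other markers, so it pools progenitors and neurons, and mural cells are both pericytes and vascular smooth muscle cells.

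Receptors that span the membrane pass signals to heterotrimeric G proteins, whose alpha subunit is active while it holds GTP. RGS proteins carry a domain that speeds GTP hydrolysis by alpha subunits of the Gi and Gq groups, and so shorten the signal after a receptor has been activated. Rgs5 is widely used as a marker of pericytes, Rgs2 acts preferentially on Gq, Rgs1 is known from leukocytes and Rgs20 acts preferentially on Gz, the alpha subunit encoded by Gnaz. Rgs4, Rgs5 and Rgs16 share a protein start of methionine followed by cysteine. Once the methionine is removed the cysteine can be oxidised, arginylated and recognised by ubiquitin ligases, so that these proteins are short-lived when oxygen is present.

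That start could be read from the transcripts. The first 30 coding bases of 1 transcript per member are shown because they separate Rgs4, Rgs5 and Rgs16 from the other members (GRCm38, GENCODE annotation, 5′ to 3′, second codon in capitals).
Rgs4: atgTGCaaaggacttgcaggtctgccggct
Rgs5: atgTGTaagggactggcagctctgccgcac
Rgs16: atgTGCcgcaccctagccaccttccccaac
Rgs1: atgAGAgcggcagccatctccatgccaagg
Rgs2: atgCAAagtgccatgttcctggctgtccag
Rgs3: atgAACcgcttcaatgggctctgcaaagtg
Rgs10: atgTTCacccgcgccgtgagccgactgagc
Rgs20: atgCCCagcctttcccaagaaaaccaaggg
The second codon was a cysteine codon in 2 of 2 complete coding transcripts of Rgs4, 2 of 2 of Rgs5 and 1 of 1 of Rgs16, and in no complete coding transcript of the other 18 genes of the series. Over the annotation, 193 of 21575 coding genes (0.895%) had such a second codon. The proteins predicted from the transcripts shown were 205 residues for Rgs4, 181 for Rgs5, 201 for Rgs16, 209 for Rgs1, 211 for Rgs2 and 181 for Rgs10, against 372 for Rgs20 and 966 for Rgs3. The pair Rgs4 and Rgs5 was highest in mural cells, whereas Rgs16 was highest in neural cells, so the shared start did not go with 1 population.

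Of the 8 members, 6 lie on chromosome 1. Rgs5 (ENSMUSG00000026678, chr1:169655501-169695813, plus strand) and Rgs4 (ENSMUSG00000038530, chr1:169741477-169747642, minus strand) are neighbours that face each other across 45.7 kb, with 0 coding genes between them. Rgs2 (ENSMUSG00000026360, chr1:143999338-144004161, minus strand) and Rgs1 (ENSMUSG00000026358, chr1:144242296-144249242, minus strand) lie 238 kb apart with Rgs13 as the 1 coding gene between them. Rgs16 (ENSMUSG00000026475, chr1:153740349-153745468, plus strand) lies 40.025 kb after Rgs8. Rgs20 (ENSMUSG00000002459, chr1:4909576-5070285, minus strand), Rgs3 (ENSMUSG00000059810, chr4:62559847-62704001, plus strand) and Rgs10 (ENSMUSG00000030844, chr7:128373621-128418758, minus strand) have no other member nearby. The strand setting of the counting was not given in the sources used here, and 4 members share bases with annotated genes. Rgs3 and Rgs16 overlap antisense genes, and Rgs10 overlaps Gm15503 on the same strand over 3374 bases (mean 445 normalized counts in microglia). Rgs20 shares 268 bases with the opposite-strand gene Atp6v1h, whose means were 1542 to 3074 normalized counts. Among its further overlaps is Gm37079, on the same strand over 2135 bases. Its means were 0 in neural, 72.6 in mural, 69.4 in endothelial libraries and 2.37 in microglia.

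Because Rgs5 and Rgs4 were high in the same population, the sequence around their starts is shown, from 250 bases before to 50 bases after the first base (RefSeq, GRCm38.p6). RefSeq promoters could be matched for 6 of the 8 members. Capitals mark the letters GAGGAA, read on either strand, a core of sites bound by the factor PU.1.
Rgs5, chr1:169655251-169655550, plus strand: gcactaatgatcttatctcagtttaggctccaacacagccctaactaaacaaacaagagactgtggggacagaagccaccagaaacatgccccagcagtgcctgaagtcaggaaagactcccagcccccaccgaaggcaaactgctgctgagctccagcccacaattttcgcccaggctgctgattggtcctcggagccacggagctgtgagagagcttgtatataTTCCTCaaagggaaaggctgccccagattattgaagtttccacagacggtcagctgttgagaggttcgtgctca
Rgs4, chr1:169747593-169747892, minus strand: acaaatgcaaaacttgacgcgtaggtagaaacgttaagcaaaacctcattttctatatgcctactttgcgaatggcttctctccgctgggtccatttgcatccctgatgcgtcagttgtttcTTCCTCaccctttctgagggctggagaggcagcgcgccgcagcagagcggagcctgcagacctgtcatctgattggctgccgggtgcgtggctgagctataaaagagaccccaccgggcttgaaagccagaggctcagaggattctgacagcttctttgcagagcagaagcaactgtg
The same letters occur in the windows of Rgs16 and of 1 of 2 starts of Rgs3, which were highest in other populations, and not in those of Rgs2 and Rgs10. The windows of Rgs5 and Rgs4 each held 1 such match and none of the letters TGANTCA (AP-1), TGACGTCA (CRE) or the CArG box, all searched on both strands. Among 32851 promoters of the same length, 28.3% held GAGGAA, 7.81% TGANTCA, 1.79% TGACGTCA and 1.63% a CArG box. These are letters in a window and not measured sites.

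Depth and purity bear on all values that follow. The 12 bulk libraries held 17638358 to 98414914 reads on genes, recovered as whole numbers from the deposited normalized counts (100% of low values were whole). Each population's 10 markers, summed, were highest in its own libraries, and none of the 10 was at 0 there. By single means, this held for 10 of 10 endothelial and 10 of 10 microglia markers, for 9 mural markers, with Notch3 higher in neural libraries, and for 8 neural markers, with Nes higher in endothelial and Fabp7 in mural libraries. Summed microglia markers reached only 176 normalized counts in endothelial, mural or neural libraries, against at least 348473 in microglia, whereas summed neural markers reached 50117 in mural libraries against 139747 to 151305 in neural libraries. Summed erythroid markers were 13054 to 34138 in endothelial and 9042 to 11841 in neural libraries, and at most 598 in mural libraries and 2075 in microglia, and their part in the members' levels was not tested. The neural libraries were made with another RNA kit and another library kit (TruSeq) than the remaining 9 (SMART-Seq v4 with Nextera XT), so that in bulk the neural population and the kit cannot be told apart. In sorted bulk RNA, fewer cells of a type and less RNA per cell cannot be told apart either. In the wild-type plates 709 wells had more than 1500 transcripts, of which 686 came from the 4 main gates: 123 neural, 210 mural, 225 endothelial and 128 microglia. Median transcripts per cell were 7717, 6885, 6408 and 10761, and 121 of 123, 193 of 210, 210 of 225 and 128 of 128 cells scored highest for the markers of their own gate. All 192 well barcodes occur in more than 1 library by design, so wells were identified by library and barcode. Plate 3 gave 43 cells, against 349 and 317 on plates 1 and 2.

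For each of the 8 members, the 3 libraries of its highest population lay above all 9 other libraries (the plot of bulk normalized counts per library). Mural cells were highest for Rgs5 and Rgs4, microglia for Rgs1, Rgs2 and Rgs10, endothelial cells for Rgs3, and neural cells for Rgs16 and Rgs20. This held for 50.2% of all 19765 genes tested, and the members were listed for such differences, so the count is a restatement of how they were found. The step to the next population ranged from 1.97-fold for Rgs3 to 108-fold for Rgs5 among the 7 members found in other populations, and Rgs1, at 0 in all other libraries, was at least 1512-fold higher in microglia (floor of 3 reads per library).

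**Figure D1:**
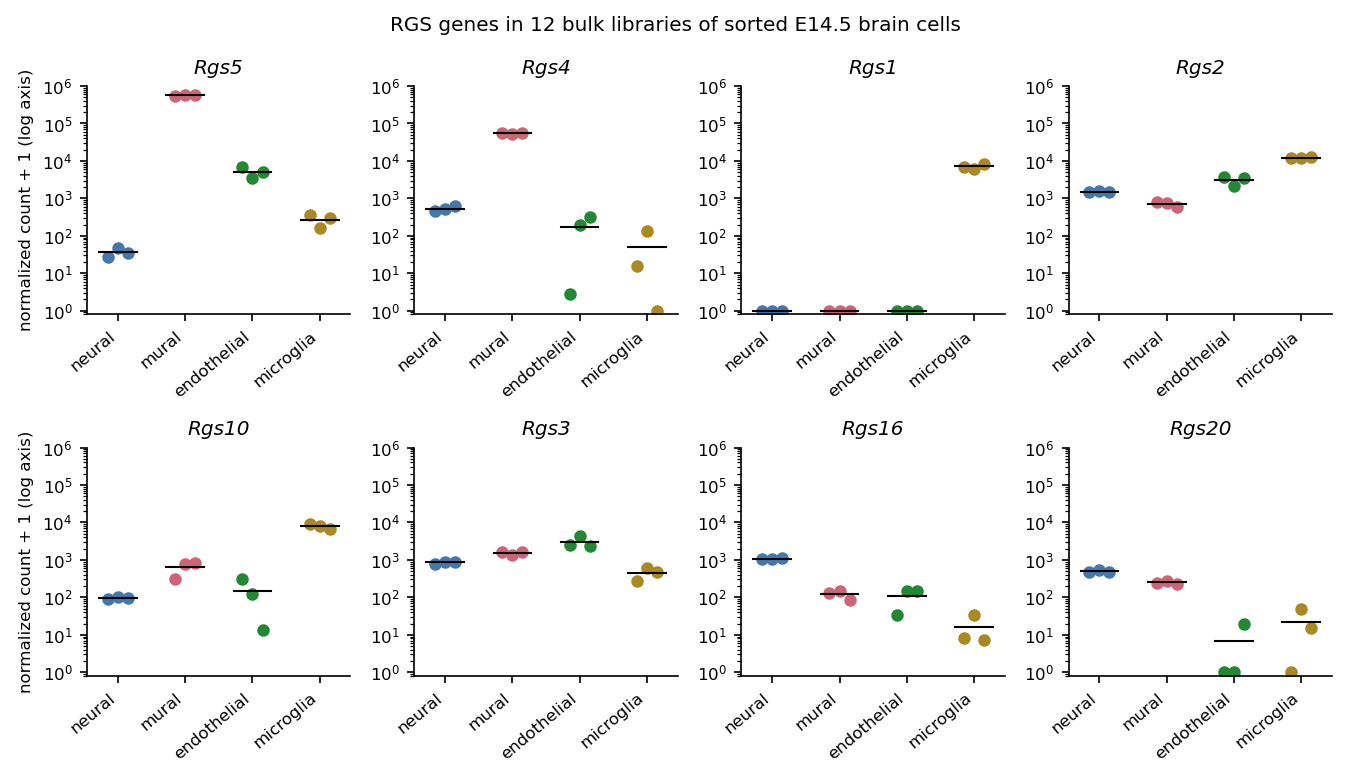
Normalized counts plus 1 (log axis) of the 8 RGS genes in the 12 bulk libraries, 1 point per library (n = 3 per population), with a black line at the mean. Rgs5 in mural libraries sits between 548316 and 579164, Rgs1 has points above 0 in microglia alone, and Rgs2 and Rgs3 are spread over all 4 populations.

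Rgs5 was the most abundant member by a wide margin. Its normalized counts in mural libraries were 548316, 557899 and 579164 (561793 ± 15788, SD, n = 3). In endothelial libraries they were 6872, 3469 and 5212, in microglia 349, 162 and 301, and in neural libraries 26.7, 45.4 and 34.9. The 4 populations did not overlap, and mural libraries were 108-fold above endothelial libraries, which were 19.1-fold above microglia. Rgs5 took 1.99%, 1.95% and 2.22% of all reads on genes in the mural libraries and ranked 2, 4 and 2 among all genes.

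The endothelial level of Rgs5 was compared with the mural markers that could be carried over from mural cells. As a share of the mural mean, Rgs5 stood at 1.22%, 0.618% and 0.928% in the endothelial libraries. The 10 mural markers had medians of 0.0218%, 0.440% and 0.194% in the same libraries, with a range from 0 to 31.4% (Itga1, an integrin subunit). Rgs5 was above 7, 6 and 6 of the 10 markers, Pdgfrb among them, which was at 0 in 2 of the 3 libraries. The part of mural RNA in the endothelial value of Rgs5 was not tested in bulk, and the single-cell values are given further on.

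Rgs4, the neighbour of Rgs5, was also highest in mural libraries, at 56092, 52092 and 56393 normalized counts (54859 ± 2401, SD, n = 3). Neural libraries followed at 446, 510 and 627, a level 104-fold lower. Endothelial libraries had 1.77, 194 and 312 and microglia 14.3, 130 and 0, and these 2 populations overlapped. Unlike Rgs5, Rgs4 was thus second highest in neural cells, where Rgs5 had its lowest counts. Rgs4 ranked 29, 30 and 25 among all genes in the mural libraries.

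Rgs1, known for damping chemokine receptor signals in leukocytes, had 7053, 6025 and 8236 normalized counts in microglia and 0 in all 9 other libraries. Set against a floor of 3 reads in each library, microglia were at least 3299-fold higher than neural, 2822-fold higher than mural and 1512-fold higher than endothelial libraries. This made Rgs1 the member with the narrowest range of populations in bulk.

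Rgs2, which acts on Gq, had 11806, 12079 and 13118 normalized counts in microglia, 3794, 2135 and 3472 in endothelial, 1441, 1557 and 1456 in neural and 802, 761 and 602 in mural libraries. No neighbouring populations in this order overlapped, with steps of 3.94-fold, 2.11-fold and 2.06-fold. Rgs2 was therefore graded over the 4 populations and had its lowest level in the mural cells that carried the most Rgs5 and Rgs4.

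Rgs10, one of the smallest RGS proteins and known from myeloid cells, had 9232, 8259 and 6696 normalized counts in microglia. Mural libraries had 317, 792 and 813, endothelial libraries 314, 123 and 12.1, and neural libraries 88.1, 102 and 95.4. Microglia were 12.6-fold above mural libraries, which lay above the rest, and endothelial and neural libraries overlapped.

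The microglia libraries also carried the most immediate early gene RNA, at 584316 to 856492 summed normalized counts of 14 genes, against 141723 to 223433 in mural, 72615 to 130021 in endothelial and 38139 to 49626 in neural libraries. Of these genes, which transcription switches on within minutes of a stimulus, all 14 were higher in microglia and 0 were lower (limma, adjusted p under 0.05, 23.4% and 22.3% of all genes). The summed level of 6 markers of border macrophages was 15405 to 19616 in microglia and at most 994 elsewhere. Their part in the levels of Rgs1, Rgs2 and Rgs10 was not tested.

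Rgs3, a gene with several isoforms of very different length, had 2523, 4240 and 2336 normalized counts in endothelial libraries. Mural libraries had 1614, 1354 and 1658, neural libraries 797, 895 and 870, and microglia 270, 621 and 483. The populations did not overlap, and the steps between them were 1.97-fold, 1.80-fold and 1.86-fold, which made Rgs3 the flattest of the 8.

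Rgs16 had 1032, 1070 and 1112 normalized counts in neural libraries, 8.78-fold above mural libraries at 131, 151 and 84.5. Endothelial libraries, at 33.7, 145 and 149, overlapped the mural ones, and microglia had 7.13, 32.02 and 6.29.

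Rgs20, the regulator of Gz, had 483, 547 and 473 normalized counts in neural libraries and 242, 273 and 231 in mural libraries, 2.02-fold apart without overlap. Microglia had 0, 48.6 and 13.9, and endothelial libraries 0, 0 and 18.1, which overlapped. Within each brain the neural library lay above the mural one. With the brain number as a term of the model, Rgs20 was the 1 member whose neural libraries no longer lay above all others. That term shifts all libraries of a brain together on a log scale. It is also estimated from the microglia and endothelial values near 0, so this overlap does not bear on the neural to mural difference within brains. Summed neural markers in the same mural libraries were 26390 to 50117 normalized counts, of which Fabp7 made up a mean of 26942, and their part in the mural level of Rgs20 was not tested.

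Divided by exon length, levels could be compared between genes. Merged exon lengths of the GENCODE annotation were used, which for Rgs1 equal the whole gene of 6947 bases, since a transcript that keeps its introns is annotated. The 21 genes summed to 142698 normalized counts per kb in mural libraries, 10935 in microglia, 3922 in endothelial and 2289 in neural libraries. Rgs5 made up 86.6% of the mural sum and Rgs4 12.4%. The mural total was thus carried by 1 locus, and each of the remaining genes, led there by Rgs19, held 0.300% or less.

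In microglia, Rgs10 held 43.1% of the RGS sum per kb, Rgs2 31.1%, Rgs19 13.5% and Rgs1 9.35%. In endothelial libraries no gene held a majority, with Rgs5 at 29.1%, Rgs19 at 23.6%, Rgs2 at 22.0% and Rgs12 at 11.9%. In neural libraries Rgs12 led with 488 normalized counts per kb (21.3%), followed by Rgs16 at 458 (20.0%), Rgs2 at 409 (17.9%), Rgs8 at 209 (9.14%) and Rgs4 at 170 (7.44%). The 8 members together held 99.6% of the sum in mural, 84.7% in microglia, 63.1% in endothelial and 56.7% in neural libraries.

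**Figure D2:**
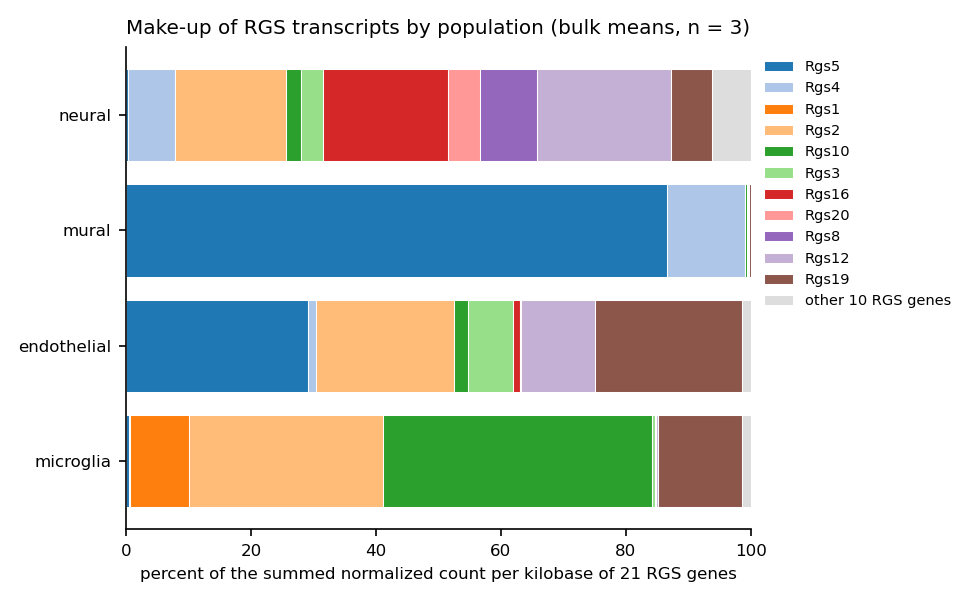
Share of each RGS gene in the summed normalized count per kilobase of 21 RGS genes, by population (bulk means, n = 3), in percent along the horizontal axis. The mural bar is Rgs5 (86.6%) and Rgs4 (12.4%), while the neural and endothelial bars are divided among many genes.

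The genes whose pattern was most like that of each member were taken as the 3 with the highest Pearson correlation of log2(normalized count + 1) over the 12 libraries. These libraries form 4 populations, so the values chiefly restate population differences. For Rgs5 they were Slc25a4 (0.99), Sept7 (0.98) and Laptm4a (0.98), and for Rgs4 Spin4 (0.98), Arhgap42 (0.97) and Prmt1 (0.95). For Rgs1 they were Itgax (0.99996), Cd48 (0.99993) and Ms4a6c (0.99992), for Rgs2 Tapbp, Alox5ap and Tlr2 (all 0.98), and for Rgs10 Ncoa4 (0.99), Mertk (0.98) and Tmem135 (0.97). For Rgs3 they were Tjp1, Ccn6 and Mapk12 (all 0.97), for Rgs16 Tmem108, Sgtb (both 0.98) and Pard6g (0.97), and for Rgs20 Igsf3 (0.98), Zfp583 (0.97) and E130114P18Rik (0.96). None of the 8 members was among the 3 closest genes of another.

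The other RGS genes, those left after the members had been chosen on the same libraries, were tested with limma as 1 population against the mean of the other 3. Of 13 genes 11 passed the filter of a mean normalized count of 10. In neural libraries 7 were higher and 3 lower, where 32.9% of all genes tested were higher and 31.2% lower. In mural libraries 1 was higher and 4 were lower (background 19.3% and 22.7%), in endothelial libraries 3 and 4 (19.7% and 22.4%), and in microglia 3 and 4 (23.4% and 22.3%). Their median log2 difference was 3.41 in neural, -1.65 in mural, -1.78 in endothelial libraries and -1.80 in microglia, beside medians over all genes tested of 0.09, -0.10, -0.12 and -0.02. The 4 differences of a gene sum to 0, so these medians are not independent of each other, and the members highest in mural libraries and microglia had been taken out of the list for their levels.

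Rgs8, a relative of Rgs4 and Rgs16 and the gene before Rgs16 on chromosome 1, had 2102, 1981 and 1964 normalized counts in neural libraries and at most 147 elsewhere (log2 difference 7.59 ± 1.83, SE, adjusted p = 0.00394, limma). Rgs17, a relative of Rgs20, had 351, 304 and 267 in neural libraries and at most 70.9 elsewhere (6.496 ± 1.48, adjusted p = 0.00282, limma). Rgs7, one of the RGS proteins that pair with the beta subunit Gnb5, had 164, 207 and 183 in neural libraries and 0 in all others (adjusted p = 1.62e-08, limma). Of the 11 genes tested these 3 were the ones whose neural libraries all lay above the other 9, as did those of 25.2% of all genes tested. Rgs22, which did not pass the filter, had 26.7, 15.5 and 14.002 normalized counts in neural libraries and at most 6.03 elsewhere.

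Rgs12, a large protein with further domains, did not separate neural from endothelial libraries, with means of 4140 and 3954 normalized counts that overlapped between libraries, and 971 in mural and 324 in microglia libraries. It was higher in neural (log2 difference 1.99, adjusted p = 4.88e-05) and in endothelial libraries (1.89, adjusted p = 0.000183, limma) than in the mean of the rest. Rgs19 ran the other way, at 3282 in microglia, 2065 in endothelial, 954 in mural and 341 in neural libraries, without overlap between neighbours.

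Rgs18, known from platelets and other blood cells, had a mean of 184 in microglia and at most 3.02 in any other library (log2 difference 7.21 ± 0.49, adjusted p = 6.1e-07, limma). Rgs14 had a mean of 232 in microglia (6.20 ± 0.71, adjusted p = 3.7e-05, limma). Summed platelet markers were 202 to 496 normalized counts in all 12 libraries. Rgs9 was at 0 in all microglia libraries, with means of 241 in endothelial and 139 in neural libraries that overlapped. Rgs6 had 190 in neural and 87.1 in mural libraries, which overlapped, and 0 elsewhere. Rgs13, between Rgs2 and Rgs1 on chromosome 1, stayed at a mean of 39.8 or less in every population. Rgs11 was near 20 in each population and passed the test in none.

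The wider pathway was followed through 7 lists, of which 107 genes were tested: the other RGS genes, G alpha subunits, G beta and gamma subunits, effectors, receptor kinases and arrestins, receptors, and enzymes of the cysteine N-degron pathway. Over all 7 lists, 50 genes were higher and 34 lower in neural, 28 and 35 in mural, 25 and 49 in endothelial libraries, and 27 and 38 in microglia. Beside these stand the shares over all genes tested, 32.9% higher and 31.2% lower in neural, 19.3% and 22.7% in mural, 19.7% and 22.4% in endothelial libraries, and 23.4% and 22.3% in microglia, and several counts lie near them, such as the 25 higher in endothelial libraries. The endothelial count of lower genes depended on the test and was 26 with edgeR on the recovered reads, a test that also called fewer genes lower over the whole table (2514 of 19765, against 4430 with limma).

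In mural cells, where Rgs5 and Rgs4 were high, 12 of 36 receptor genes were higher and 14 lower (median log2 difference -0.69), where 19.3% of all genes were higher and 22.7% lower. Ednra, the endothelin receptor that acts through Gq, had 23093, 20036 and 23905 normalized counts and at most 11.4 elsewhere (log2 difference 12.59 ± 0.61, adjusted p = 2.04e-07, limma). P2ry14, a receptor for UDP-sugars, rose by 10.46 and S1pr3, a receptor for sphingosine 1-phosphate, by 10.43 on the same scale. Of 14 G alpha genes 2 were higher and 4 lower (median -0.05), and Gnai3, a Gi subunit, was at 9549, 10248 and 8220, above its highest value elsewhere of 5172 (1.13 ± 0.13, adjusted p = 5.83e-05, limma). Of 15 G beta and gamma genes 7 were higher and 1 lower (median 0.42). Gng11 had 15849 to 16444, Gnb4 9655 to 11099 and Gnb5 834 to 1070, each above all 9 other libraries, though Gng11 reached 13776 elsewhere. Of 17 effectors 2 were higher and 6 lower. Prkg1, the cGMP-dependent kinase of smooth muscle, was 1 of the 2 (3.78 ± 0.52, adjusted p = 0.000205, limma), and Adcy7 (-4.36) was among the lower ones. Of 7 kinases and arrestins 1 was higher and 4 lower, among them Arrb1 (-4.36) and Grk2 (-1.47).

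The cysteine N-degron list bears on Rgs4 and Rgs5. In mural libraries 3 of 7 genes were higher and 2 lower (median -0.18), where 19.3% of all genes were higher and 22.7% lower. Ado, the dioxygenase that oxidises the cysteine of such proteins, had 6391, 4818 and 4737 normalized counts against at most 3034 in the other 9 libraries (log2 difference 1.51 ± 0.15, adjusted p = 2.85e-05, limma). Ubr1, one of the ubiquitin ligases, had 2865, 2697 and 2441 against at most 2229 (0.64 ± 0.12, adjusted p = 0.00143, limma). In neural libraries 2 were higher and 3 lower (all genes 32.9% and 31.2%). Ado was at 1359, 1230 and 1269 there, below all other libraries (-1.20, adjusted p = 5.49e-05, limma). The neural libraries carry the difference in kits stated above. In single cells, made with the same protocol for all gates, Ado in the neural gate differed from the other gates by 0.16 (adjusted p = 0.779, edgeR). These are RNA levels, and protein was not measured.

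Mural libraries were also compared with the mean of the other 3 populations for genes of pericytes and of smooth muscle. All 6 pericyte genes were higher (median 11.48), led by Kcnj8, Higd1b and Abcc9. Of 6 smooth muscle genes 3 were higher (median 4.52), Des, Mylk and Acta2, against 19.3% of all genes. This does not give the make-up of the mural sort. Of the pericyte genes 4 are also mural markers. Summed fibroblast markers were 8873 to 11803 normalized counts in mural and at most 270 in the other libraries, and their part in the mural levels of the members was not tested.

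In microglia, 11 of 36 receptors were higher and 11 lower (median -0.07, all genes 23.4% and 22.3%), and the leading ones were the ADP receptor P2ry12 (46750 to 64898 normalized counts, log2 difference 14.62 ± 1.31, adjusted p = 5.38e-06, limma), the fractalkine receptor Cx3cr1 (13.96) and P2ry13 (12.63). Of the G alpha genes 3 were higher and 5 lower (median -0.18). Gna15, a Gq-group subunit of blood cells, had 6524, 5113 and 3480 against at most 30.1 elsewhere (10.86 ± 0.94, adjusted p = 4.37e-06, limma), and Gnai1 was lower (-4.28). Of the effectors 2 were higher and 9 lower, the higher ones being Plcb2, a phospholipase driven by Gq and beta-gamma (7.32), and the adenylyl cyclase Adcy7 (5.87). Adcy6 (-6.25) was among the lower ones. Of 15 G beta and gamma genes 4 were higher and 5 lower, with Gnb4 (-4.86) among the lower ones. Of the kinases and arrestins 3 were higher and 3 lower, with Arrb2 at 7831 to 11337 (3.78 ± 0.26, adjusted p = 6.42e-07, limma).

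In endothelial cells, where Rgs3 had its highest level, 5 of 36 receptors were higher and 21 lower (median -2.45, all genes 19.7% and 22.4%), and the apelin receptor Aplnr led with 12079 to 21832 normalized counts (12.20 ± 1.20, adjusted p = 2.22e-05, limma). Gnai1 (2.80) and Gnai2 (1.86) were above all other libraries, among 3 higher and 7 lower G alpha genes (median -1.48). Of the effectors 5 were higher and 8 lower, with Adcy4 (5.86) and Plcb4 (2.17) leading the higher ones and Adcy3 (-6.07) among the lower ones. Of 15 G beta and gamma genes 5 were higher and 6 lower. Grk5, a receptor kinase, had 1184 to 2438 (2.88 ± 0.36, adjusted p = 0.000107, limma).

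In neural cells, where Rgs16 and Rgs20 were highest, 9 of 14 G alpha genes were higher and 2 lower (median 1.09, all genes 32.9% and 31.2%). Gnao1, the main G alpha of neurons, had 15316 to 16698 normalized counts (6.24 ± 0.63, adjusted p = 9e-06, limma) and Gnaz, the preferred partner of Rgs20, had 694, 610 and 665 against at most 399 elsewhere (4.94 ± 1.34, adjusted p = 0.0076, limma). Of the effectors 10 were higher and 5 lower (median 3.30). The potassium channel Kcnj3 (7.74) and Adcy1 (7.10) led the higher ones, and Adcy4 (-8.06) was among the lower ones. Of 15 G beta and gamma genes 5 were higher and 6 lower, with Gngt2 (-9.75) and Gng11 (-7.47) among the lower ones. Receptors split evenly, with 14 higher, among them the cannabinoid receptor Cnr1 (8.65), and 14 lower. These neural contrasts carry the difference in kits stated above.

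The single cells were made with 1 protocol for all gates and so separate the neural contrast from the kit. In the fit of transcripts summed per plate and gate, 67 genes of the 7 lists were tested, of which 13 were higher and 24 lower in the neural gate (edgeR, background 22.5% and 17.3% of 9281 genes). Of the 50 genes higher in bulk neural libraries, 23 were tested in cells, 12 were called in the same direction and 4 in the opposite one. The 12 were Adcy5, Cnr1, Ednrb, Gabbr1, Gnai1, Gnao1, Gnaq, Gnaz, Gng2, Gng3, Plcb1 and Rgs12. The 4 opposite ones were Cxcr4 and the G alpha genes Gna12, Gna13 and Gnas, with log2 differences between -0.79 and -1.42 in cells. Of the 34 genes lower in bulk, 30 were tested, 20 were called lower and 0 higher. Rgs12 was higher in the neural gate than in the mean of the other gates (log2 difference 1.03, adjusted p = 0.0245, edgeR). Rgs19 was lower (-1.35, adjusted p = 0.00504, edgeR). Rgs12 was still highest in the endothelial gate, at 59.4 counts per 1000000 transcripts, against 47.6 in neural, 39.3 in mural and 3.65 in microglia cells. The endothelial gate was above the neural gate on each plate, at 69.8, 42.4 and 71.2 against 59.8, 37.9 and 32.8. The numbers of list genes called rested on plates 1 and 2. Without plate 1 they were 4 higher and 9 lower, and without plate 2 they were 8 and 8.

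The members themselves were read in the wild-type wells by sort gate, with CPM as the transcripts of a gene in a gate scaled to the gate's total (counts per 1000000). Each member's highest gate in single cells was the population with its highest bulk level, though not by a clear margin for Rgs3 and Rgs16 (the plot of CPM by gate and plate). Intervals given for CPM and shares are exact 95% intervals and cover counting error only.

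**Figure D3:**
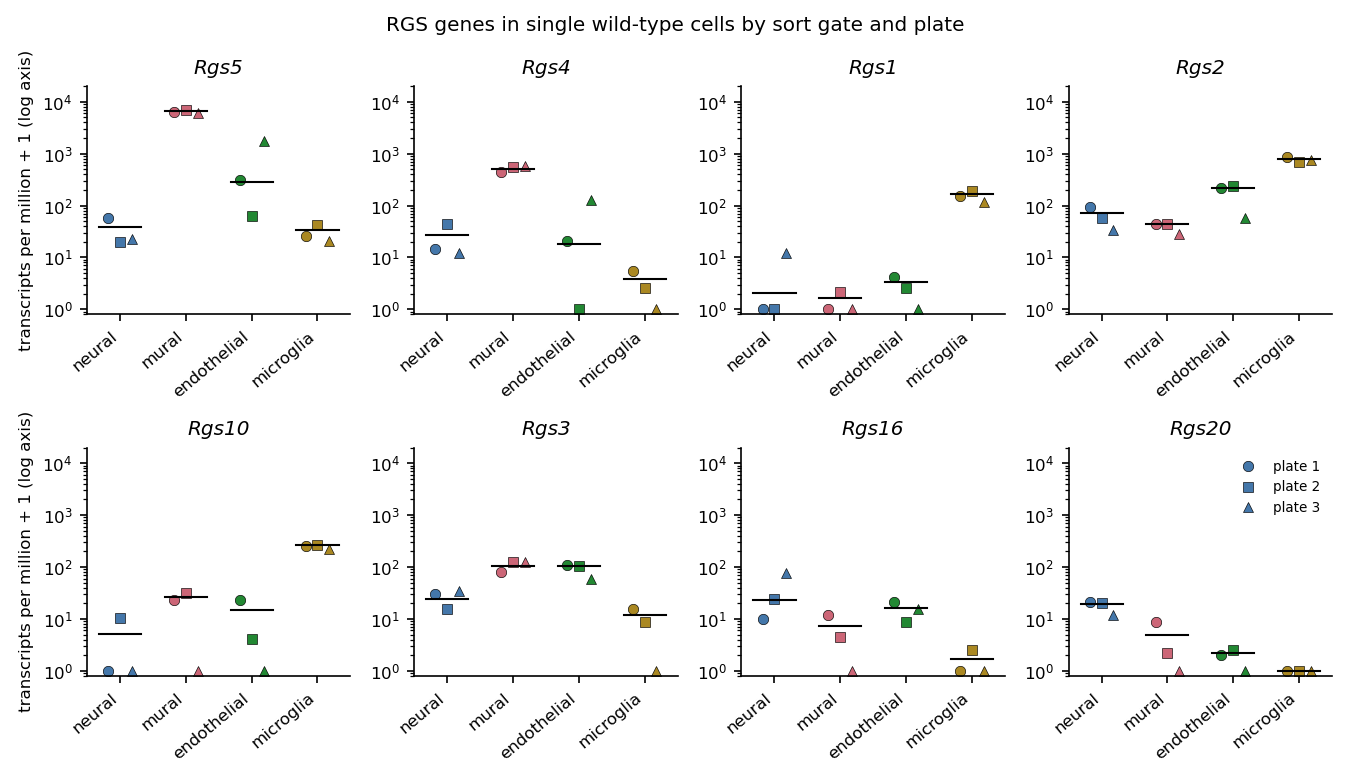
CPM plus 1 (log axis) of the 8 RGS genes in wild-type cells by sort gate, with 1 point per plate (circle plate 1, square plate 2, triangle plate 3) and a black line at the value of all cells of the gate. Rgs5 in the mural gate lies between 6156 and 6971 on the 3 plates, and the endothelial and mural gates meet for Rgs3.

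Rgs5 was found in 95.7% of mural gate cells (201 of 210, interval 92.0 to 98.0%), at 6698 CPM, with 6394, 6971 and 6156 on plates 1, 2 and 3. It ranked 12 among all genes of the gate and made up 0.670% of transcripts. Per cell its median was 67.0 transcripts per 10000, and the 5th and 95th percentiles were 1.24 and 129. The low end of that range held cells of another class. The 193 cells of the gate with mural-like markers had 7190 CPM, whereas 16 cells with neural-like markers had 168 CPM.

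Outside the mural gate Rgs5 was found in 25.2% of neural, 20.9% of endothelial and 23.4% of microglia cells, at 37.3, 279 and 32.1 CPM and with median depths of 7717, 6408 and 10761 transcripts. Before thinning these shares were alike, although bulk levels differed between the 3 populations, and no expression was read from them. The part of free RNA in them was not tested. Thinned to 1500 transcripts per cell, the shares were 5.69%, 10.7% and 5.47%, against 92.9% in the mural gate. The endothelial CPM was uneven over plates, at 315, 61.3 and 1769. It came largely from few cells: 10 of 225 had more than 10 Rgs5 transcripts per 10000, 4 of which were mural-like, and 0 of 123 neural and 0 of 128 microglia cells did (the plot of Rgs5 in each wild-type cell). Without the 5 mural-like cells in the gate the endothelial value was 106 CPM, with 138, 61.3 and 59.1 on the 3 plates, still above the neural (35.4) and microglia (32.1) values on the same footing.

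**Figure D4:**
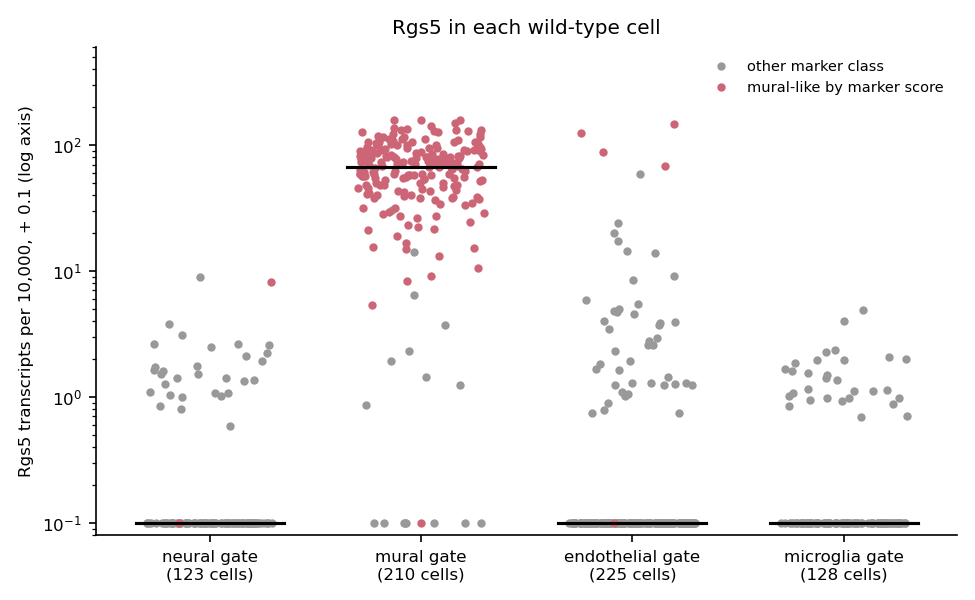
Rgs5 transcripts per 10000 plus 0.1 (log axis) in each wild-type cell by sort gate, 1 point per cell, red where the cell scored as mural-like by 10 markers that do not include Rgs5, with a black line at the gate's median. Of 210 mural gate cells 191 lie above 10 per 10000, against 10 of 225 endothelial, 0 of 123 neural and 0 of 128 microglia cells.

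Rgs4 was found in 81.0% of mural gate cells (interval 74.98 to 86.03%) at 511 CPM, with 445, 556 and 563 on the 3 plates. Neural cells had 25.9 CPM in 9.76% of cells, endothelial cells 16.8 CPM in 4.89% and microglia 2.92 CPM in 3.13%. The order of neural before endothelial cells did not hold on each plate, since the neural gate had 13.3, 42.6 and 10.9 CPM. The endothelial value came to 128 CPM on plate 3, where 3 of 13 cells were mural-like, 19.8 on plate 1 and 0 on plate 2.

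Nearly all mural gate cells with Rgs4 also held Rgs5, as did most cells of the gate without Rgs4. After thinning, 103 of 210 mural gate cells held both, 92 held Rgs5 alone, 3 held Rgs4 alone and 12 neither. Rgs5 was thus found in 97.2% of cells with Rgs4 and 88.5% of those without it. Rgs4 was found in 52.8% of cells with Rgs5 and 20% of the few without it. Their thinned levels had a Spearman rho of 0.07 over cells that share plates and depth. Rgs4 then averaged 0.86 transcripts in cells with Rgs5, and counts this low hold rho near 0, so a relation of their levels cannot be judged from it. With the summed pericyte genes and mural markers in the same cells, rho was 0.49 and 0.56 for Rgs5. For Rgs4 it was 0.19 and 0.16, under the same limit of low counts. These values are over all cells of the gate, 193 mural-like and 16 neural-like cells among them, and no test was made.

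In microglia, Rgs2 was found in 90.6% of cells at 775 CPM, Rgs10 in 85.2% at 260 CPM and Rgs1 in 45.3% (interval 36.5 to 54.3%) at 169 CPM. The plates gave 863, 683 and 749 CPM for Rgs2, 256, 267 and 217 for Rgs10, and 153, 190 and 118 for Rgs1. Thinned to 1500 transcripts, the shares were 56.3%, 32.8% and 19.5%. All 3 genes had their highest CPM there on every plate. By these 3′ counts Rgs2 came before Rgs10, whereas per kb of merged exons Rgs10 came first in bulk, so their order depends on the measure.

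Rgs1 was found in 1 of 123 neural, 1 of 210 mural and 2 of 225 endothelial cells, the closest a member came to being limited to 1 gate. Rgs2 kept the graded order of the bulk libraries, with 217 CPM in endothelial (56.4% of cells), 70.4 in neural (26.8%) and 42.6 in mural cells (23.3%). Rgs10 had 25.8 CPM in mural (14.8%), 13.8 in endothelial (4.89%) and 4.14 in neural cells (2.44%). These 3 gates had no fixed order over plates, since endothelial and mural cells were at 21.9 and 22.2 CPM on plate 1 and neural cells (9.47) were above endothelial cells (3.14) on plate 2.

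Within microglia, Rgs1 was spread unevenly, with a median of 0, a 95th percentile of 7.35 and a maximum of 36.7 transcripts per 10000. Of thinned cells with Rgs1, 72.0% also held Rgs2, against 52.4% of those without it (18 of 25 and 54 of 103), with a rho of 0.27 over 128 cells. Rgs1 and Rgs10 had a rho of -0.07. With the summed immediate early genes rho was 0.12 for Rgs1 and 0.17 for Rgs2, with border macrophage markers 0.04 and 0.03, and with smooth muscle genes, which are sparse in these cells, 0.20 and -0.02. As in bulk, the summed immediate early genes were highest in the microglia gate, at 6653 CPM, followed by mural (5497), endothelial (2674) and neural cells (1331). Border macrophage markers were at 158 CPM in the microglia gate and at most 20.0 in the other 3 gates.

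Rgs3 was as high in mural as in endothelial cells, at 104 and 105 CPM (intervals 89.0 to 122 and 90.0 to 122), in 46.2% and 42.7% of cells. The plates gave 79.2, 122 and 124 CPM in the mural gate and 109, 104 and 57.0 in the endothelial gate, which overlapped, and without plate 1 the mural gate was the highest, at 122 CPM. In bulk the endothelial libraries were 1.97-fold above the mural ones. The single-cell counts come from 3′ ends and the bulk counts from whole transcripts, and the part of this in the difference was not tested. Neural cells had 22.8 CPM (13.01%) and microglia 10.9 CPM (7.81%).

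Rgs16 and Rgs20 were sparse in single cells. Rgs16 was found in 8.94% of neural gate cells (interval 4.55 to 15.4%) at 21.8 CPM, with 8.86, 23.7 and 76.7 on the 3 plates, and in 7.56% of endothelial cells at 15.01 CPM, with 19.8, 7.86 and 14.2. On plate 1 the neural gate was thus below the endothelial gate and below the mural gate (11.1 CPM). The endothelial interval of 4.46 to 11.8% overlapped the neural one, and after thinning the endothelial gate had the higher CPM. In bulk the neural libraries, made with another kit, were 8.78-fold above the next population. Rgs20 was found in 10.6% of neural gate cells at 18.6 CPM, with 19.9, 18.9 and 10.9 on the plates. In mural cells it was found in 2.38% at 3.87 CPM, in endothelial cells in 2 of 225, and in microglia in 0 of 128, which allows a share of cells with a transcript of up to 2.34% (3 counts of 128) and does not limit the share that express the gene. In bulk the mural level of Rgs20 was 2.02-fold under the neural one.

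The knockout plates were compared with the wild-type plates within classes of cells set by the same 10 markers per population, since they carry no gates. Kat8, the targeted gene, was at 5.06, 7.56 and 24.6 CPM in neural-like cells of knockout plates 4, 5 and 6, and at 24.0, 28.9 and 10.1 CPM on wild-type plates 1, 2 and 3 (log2 difference -1.15 ± 0.60, SE, adjusted p = 0.905, edgeR). These ranges overlapped, and 3′ transcripts outside a deleted part would not check the genotype. The libraries are therefore called by their labels. Each genotype had its own plates, so genotype and plate cannot be told apart, and although the wild-type cells came from 3 brains, how plates relate to brains was not stated for either genotype in the sources used here, so p-values over plates may measure technical spread. In neural-like cells 0% of 7449 genes were called higher and 0% lower (edgeR, adjusted p under 0.05), with 361 genes at an unadjusted p under 0.05. DESeq2 called 4 genes and edgeR without the filter on low counts 98.

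Of the members, 6 could be tested in neural-like cells and none was called. Rgs4 had 6.74, 9.72 and 3.51 CPM on the plates labelled knockout and 20.97, 37.2 and 40.5 on the wild-type plates, so that every knockout value lay below every wild-type value (log2 difference -1.96 ± 0.53, adjusted p = 0.905, edgeR). These values rest on 14 transcripts in knockout and 36 in wild-type cells. The class takes in cells from other gates, and in the neural gate alone the wild-type plates had 13.3, 42.6 and 10.9 CPM, the last from 1 transcript. Rgs2 had 91.0, 74.5 and 80.7 CPM against 83.9, 55.7 and 30.4 (0.42 ± 0.31), and Rgs20 had 64.1, 19.4 and 14.04 against 29.96, 18.6 and 10.1 (0.60 ± 0.60). For Rgs3 (0.32 ± 0.46), Rgs5 (0.12 ± 0.64) and Rgs16 (0.52 ± 0.84) the plates also overlapped, and the direction turned when single plates were left out. Rgs1 and Rgs10 were too low to test, though plate 5 held 24 Rgs1 transcripts in 3 of its neural-like cells.

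**Figure D5:**
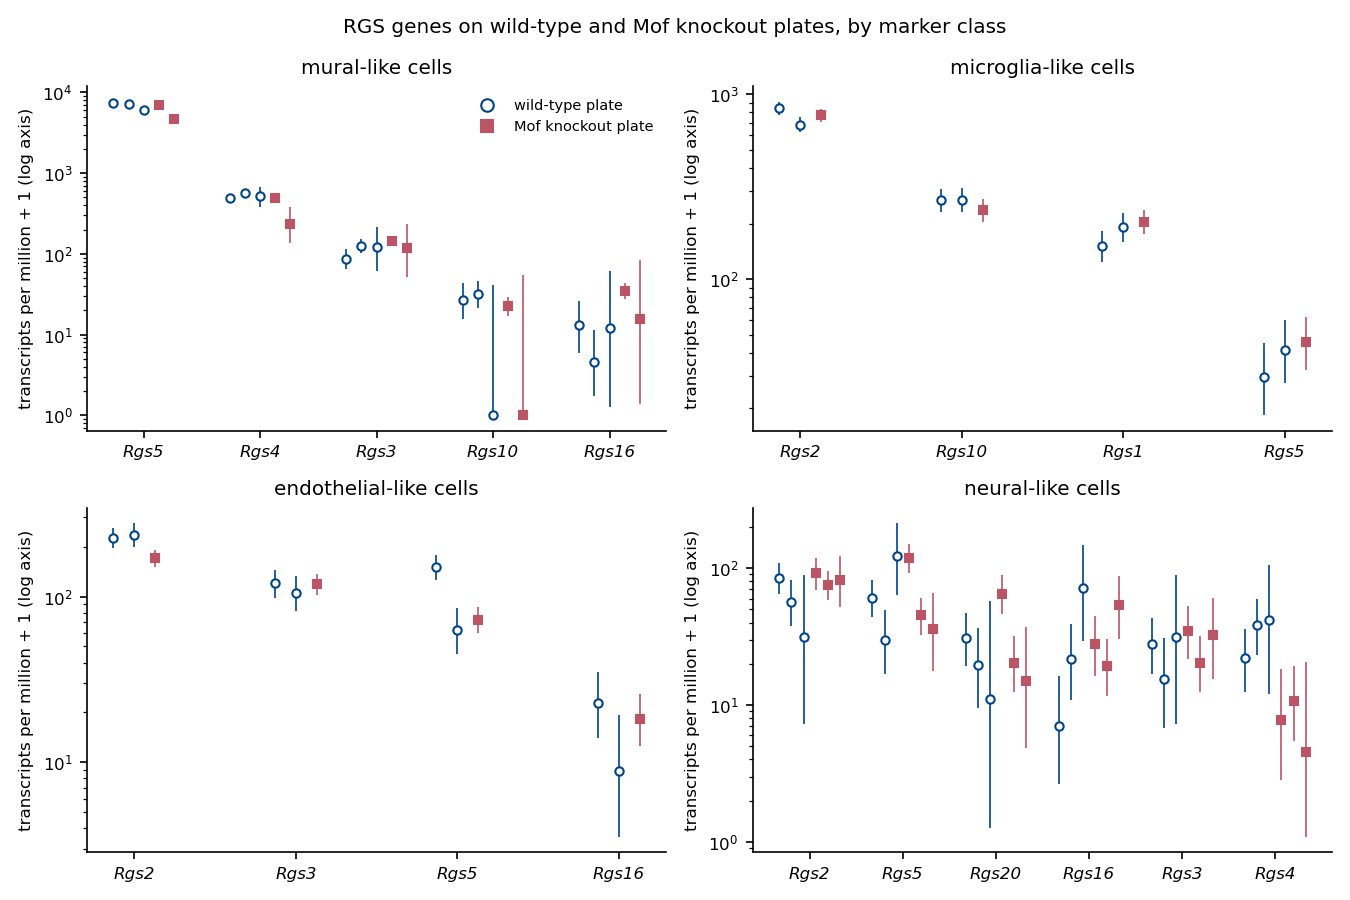
CPM plus 1 (log axis) of RGS genes per plate in mural-like, microglia-like, endothelial-like and neural-like cells, with open circles for wild-type plates, red squares for plates labelled Mof Knockout and bars for exact 95% counting intervals. In neural-like cells the 3 knockout values of Rgs4 (3.51 to 9.72 CPM) lie below the 3 wild-type values (20.97 to 40.5 CPM). Rgs5 and Rgs4 in mural-like cells of plate 4 (6916 and 487 CPM) lie near the wild-type values, and plate 6, with 11 such cells, lies lower (4629 and 235 CPM).

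The remaining classes each came mainly from 1 knockout plate, so there was no test. The 274 mural-like cells of plate 4 had 6916 CPM of Rgs5, against 7447, 7130 and 6117 on the wild-type plates, and 487 CPM of Rgs4, against 497, 565 and 512. Rgs3 was at 142 CPM against 86.2, 124 and 120. Rgs16 was at 34.0 CPM (interval 26.8 to 42.6) against 12.1, 3.54 and 10.9, above each wild-type value, although the interval of wild-type plate 3, with 13 cells, reached 60.7. A further 11 mural-like cells on plate 6 had 4629 CPM of Rgs5 and 235 CPM of Rgs4 (interval 134 to 382), both below all 3 wild-type values. Of these cells 4 lay within 0.25 of a second class, and Rgs5 was found in 72.7% of them, against 99.6% on plate 4.

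The 81 microglia-like cells of plate 5 had 204 CPM of Rgs1, 770 of Rgs2 and 236 of Rgs10, against 151 and 190, 842 and 683, and 266 and 267 on wild-type plates 1 and 2. Plate 3 held 6 microglia-like cells and is left out there, and the 6 cells of its microglia gate had 118, 749 and 217 CPM, so that the knockout values of Rgs2 and Rgs10 lay among the wild-type ones and that of Rgs1 above them, with an interval (174 to 237) that overlapped that of plate 2 (157 to 226). Rgs5 was at 44.7 CPM in these cells, in 35.8% of them, on a plate with 0 mural-like cells. On plate 4, with 274 mural-like cells, the 61 neural-like cells had 118 CPM of Rgs5 in 65.6% of cells, against 59.9, 28.9 and 122 CPM in 33.7%, 18.3% and 4 of 16 cells on the wild-type plates and 44.3 CPM in 31.6% on plate 5. The part of free RNA in these values was not tested. The 296 endothelial-like cells of plate 6 had 170 CPM of Rgs2 (interval 150 to 190), below 226 and 235 on wild-type plates 1 and 2, whose intervals began at 195 and 199. Plate 3 held only 8 endothelial-like cells and is left out of the classes there, but the 13 cells of its endothelial gate had 57.0 CPM, below the knockout value. Rgs3 was at 117 CPM against 119 and 104, and Rgs5 at 71.1 against 149 and 61.6.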

How the data were processed

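For bulk libraries the authors deposited a single table of normalized counts per gene (a signal: reads on the gene, whole-numbered, over a factor particular to the library), and for single cells tables of transcript numbers that had been corrected for identifier collisions. The submitters' processing notes name STAR and featureCounts beside DESeq2, BWA 0.6.2-r126 and the mm10 build, and the matching of tools to tables is partly not given in the sources used here. All 4428975 single-cell values above 0 followed the collision formula for 4096 identifiers within 0.01, so sums of them, rounded to whole numbers, were used as transcript counts. Bulk values divided by each library's smallest step gave whole reads.

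The members and the gene lists were chosen with earlier results of these data known. Genes averaging 10 or more normalized counts in bulk (19765 of 53465) were tested on log2(normalized count + 1) with limma 3.58.1, each population minus the mean of the other 3, and p-values were adjusted by Benjamini-Hochberg over all genes tested. Log2 differences are on that scale and understate changes of low genes. Gate sums per plate and neural-like sums per plate were tested with edgeR 4.0.16 (quasi-likelihood, two-sided), and DESeq2 1.42.0 was an alternative. Called means an adjusted p under 0.05. Tests ran in R 4.3.3 and were tested on simulated data.

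Cells with more than 1500 transcripts were kept, a minimum the study also used, which left 709 of 1056 wild-type and 882 of 2304 knockout wells. The study retained fewer wild-type cells than this. Wells were sorted as single cells and doublets were not called, so cells that were joined when sorted may remain. Cells were classed by the highest of 4 scores over 10 markers per population, and 3, 4, 5 and 0 cells of the neural, mural, endothelial and microglia gates lay within 0.25 of a second class. Shares were also computed after each cell was thinned to 1500 transcripts. Named genes were all members, every other RGS gene with a mean of at least 10 and the 3 best-correlated genes per member. List genes were taken from up to 3 called genes per list and population with the largest absolute difference whose libraries all lay above or below the rest. Not all genes that this rule selects are named, and many of those left out were lower. A receptor gene that this rule names is not reported here by name. The remaining genes named by symbol were chosen after their values were seen, as short lists of counted genes.

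The brain numbers come from the library titles. Deviations of same-numbered libraries from their population means correlated between -0.05 and 0.08 (18 pairs), against -0.07 to 0.05 for differently numbered libraries (36 pairs). A library taken from the same brain pairs the samples by design, so the fit with the brain number as a term was also made. Columns of no sample or of another series numbered 0. Among the single-cell libraries 1 was labelled under a number that differs from its title and was matched by plate. Alternatives covered pseudocounts, filters, normalization, other tools and leaving out each brain or plate.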

Additional observations from a re-analysis of the deposited data

Results flagged for a closer look

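A further 23 wild-type cells were sorted with medium or low PDGFRb, outside the 4 gates compared, and carried 5 of the members. Rgs5 was at 1657 CPM in 52.2% of these cells, Rgs4 at 73.1 CPM in 34.8%, Rgs20 at 48.7 CPM in 21.7%, Rgs2 at 42.7 CPM in 21.7% and Rgs3 at 42.7 CPM in 17.4%. The cells came from plates 1 and 2 (14 and 9 cells), which differed: Rgs5 was at 1218 and 2425 CPM, Rgs4 at 38.3 and 134 CPM, and Rgs20 at 76.6 and 0 CPM. They stood out because they are signals in cells that entered no comparison, above the share of cells with a transcript of 13.04% that a count of 0 in 23 cells allows (3 counts of 23), which does not measure free RNA, and there is no control sample for this gate. Summed neural markers were at 8403 CPM (12262 and 1644 on the 2 plates) and mural markers at 1536 CPM (1063 and 2365) in the same cells, whose median depth was 5718 transcripts. After thinning Rgs20 was found in 0 of the 23 cells. Rgs1, Rgs10 and Rgs16 were found in none of them.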

How the results depend on the processing

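Of the 113 recomputed counts, 102 stayed within 1.5 times the main count and 11 moved. All 8 members kept their highest bulk population above all other libraries with other pseudocounts, quantile normalization and each brain left out. With the replicate block of brain numbers 7 did, the exception being Rgs20, whose neural library lay above the mural one within each brain. List genes called were then 51 higher in neural, 36 lower in mural and 48 lower in endothelial libraries, with no other count changed. With plate as the block, the single-cell neural gate had 13 higher and 26 lower list genes. The number of list genes lower in endothelial libraries fell from 49 to 26 with edgeR on recovered reads. In the single-cell neural contrast the 13 higher genes became 23 without a filter on low counts, and the 24 lower genes became 14 with DESeq2. Leaving out each plate gave 4 to 14 higher and 8 to 29 lower genes. The knockout contrast went from 0 called genes to 98 without the filter and 4 with DESeq2, and to 0 to 2 when single plates were left out. The cause of these changes was not tested. Among member differences between knockout and wild type, that of Rgs3 ranged from -0.045 to 0.55, that of Rgs5 from -0.43 to 0.66 and that of Rgs16 from -0.37 to 1.34 over single plates left out, and Rgs5 was -0.053 with DESeq2. The highest gate in single cells was that of bulk for 7 members after thinning, when Rgs16 was highest in endothelial cells, and for 7 without plate 1. Single-cell values of Rgs16 and Rgs20 rest on 25 or fewer transcripts per gate, and plate 3 adds 43 cells, which limits their precision.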
